A study of Mus musculus with 9 samples.

Results

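The 10 genes described here encode AP-1 subunits and 3 related factors that respond early to a stimulus. They are *Jun*, *Junb* and *Jund*, *Fos*, *Fosb*, *Fosl1* and *Fosl2*, and *Atf3*, *Egr1* and *Nr4a1*. They were chosen by name from the 55416 genes of the count table, and all 10 were among the 14879 genes that passed the filter on low counts. RNA-Seq was performed on cultured AdvSca1-SM cells, which are progenitor cells that carry Sca1 and descend from vascular smooth muscle, with 3 libraries in each of 3 groups. The cells were sorted for YFP and Sca1 from the aorta and carotid arteries of pooled mice in which the SM22α promoter drives Cre, and were then subcultured. The labels record for every library a growth arrest of 24 hours in stem cell medium with 0.1% FBS, and all groups were then kept with 0.1% DMSO for 72 hours. Stem was the vehicle group in stem cell medium, whose culture recipe holds 10% FBS, 1 ng/mL bFGF and 5 ng/mL EGF, although the labels do not state the serum of the treatment period itself. TGF-β cells were kept in DMEM with 0.1% FBS and 5 ng/mL TGF-β1, and Both cells received the same with 50 μM PFI-3, a compound directed at the bromodomain of the chromatin remodeler Brg1. EGF, bFGF, base medium and, with that recipe, serum change together with TGF-β1 between Stem and TGF-β, so their parts in any difference cannot be told apart, whereas PFI-3 is what sets Both apart from TGF-β. Each group is described as independent replicates of cells from pooled animals, so the p-values measure the spread between such cultures. In bulk RNA, fewer cells that carry a transcript and less of it per cell cannot be told apart.

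AP-1 is a dimer of leucine zipper proteins. Jun proteins pair with each other or with Fos proteins, Fos proteins do not pair with each other, and ATF proteins such as Atf3 join the same network. Immediate early genes such as *Fos* and *Egr1* are known for a fast and brief transcriptional response to serum and growth factors, driven from promoter sites for SRF with ternary complex factors and for CREB, whereas *Jund* and *Fosl2* are known for more lasting expression. AP-1 sites lie in control regions of many matrix, protease and cytokine genes in fibroblasts and vascular cells.

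Promoter windows are shown for *Atf3*, the member with the largest change, for *Fos*, which differed between TGF-β and Both, for *Jun*, which was lower in both TGF-β1 groups, and for *Nr4a1*, which had the most motif matches and no change that passed the test. The *Nr4a1* matches were all to TGCGTCA, a motif added to the search after the member sequences were seen. The sequences are the 250 bases before the RefSeq gene start on the gene's own strand in GRCm38.p6, in lower case with motif matches in capitals. *Atf3* lies on the minus strand (chr1:191183334-191183583), *Fos* on the plus strand (chr12:85473640-85473889), *Jun* on the minus strand (chr4:95052223-95052472) and *Nr4a1* on the plus strand (chr15:101266596-101266845).
Atf3: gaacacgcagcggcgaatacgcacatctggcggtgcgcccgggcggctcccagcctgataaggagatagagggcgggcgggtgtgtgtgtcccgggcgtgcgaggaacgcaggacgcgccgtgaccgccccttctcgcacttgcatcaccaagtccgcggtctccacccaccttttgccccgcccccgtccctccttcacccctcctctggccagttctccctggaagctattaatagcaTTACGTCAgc
Fos: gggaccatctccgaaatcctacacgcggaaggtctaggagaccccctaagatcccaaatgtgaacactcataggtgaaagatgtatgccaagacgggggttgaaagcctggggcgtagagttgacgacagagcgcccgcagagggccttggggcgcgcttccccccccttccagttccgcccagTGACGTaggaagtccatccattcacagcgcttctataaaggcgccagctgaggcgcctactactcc
Jun: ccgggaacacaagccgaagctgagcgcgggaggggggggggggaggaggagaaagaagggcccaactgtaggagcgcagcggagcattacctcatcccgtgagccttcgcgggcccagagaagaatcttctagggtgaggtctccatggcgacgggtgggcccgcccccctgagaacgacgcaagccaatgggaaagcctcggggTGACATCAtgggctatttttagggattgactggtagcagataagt
Nr4a1: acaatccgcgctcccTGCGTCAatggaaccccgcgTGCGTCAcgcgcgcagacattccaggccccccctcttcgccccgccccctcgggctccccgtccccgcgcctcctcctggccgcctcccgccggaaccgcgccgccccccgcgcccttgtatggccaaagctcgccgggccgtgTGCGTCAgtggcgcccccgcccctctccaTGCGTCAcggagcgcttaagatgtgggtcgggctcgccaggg

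The capitals in *Atf3* mark TTACGTCA, a variant of the cyclic AMP response element that starts 10 bases before the gene start and overlaps a TGACGT match on the opposite strand. *Fos* holds TGACGT, the core of that element, 66 bases before its start, and *Jun* holds a match to TGACNTCA at 45 bases. *Nr4a1* holds 4 matches to TGCGTCA, which start 235, 215, 71 and 42 bases before the gene start. Windows were found for 8 of the 10 members. Of the others, *Fosb* holds 1 TGCGTCA match at 60 bases, and *Fosl2*, *Junb* and *Jund* hold no match to any motif searched. TGACTCA (the classical AP-1 site), TGACGTCA and the CArG box that SRF binds were found in 0 of the 8 windows. *Egr1* and *Fosl1* had no window, and sequence farther than 250 bases before a gene start was not searched. The 0 of 8 therefore does not say whether the members have such sites elsewhere. Among 32851 promoter windows of the same length, searched on both strands, TGACTCA was found in 4.46%, TGACGTCA in 1.55%, TGACGT in 6.47%, TTACGTCA in 0.447%, TGACNTCA in 7.49%, TGCGTCA in 1.75% and the CArG box in 1.47%. TGACNTCA and TGCGTCA were added to the search after the member sequences were seen. A match is a run of letters and not a measured binding site.

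Within each group the members covered a wide range of levels, which were compared as normalized counts per kilobase of annotated exon length (mean ± SD, n = 3). In Stem, *Jund* was the highest at 1075 ± 109 and *Fosl2* the second at 859 ± 36.7, followed by *Jun* at 528 ± 23.1 and *Junb* at 389.9 ± 19.3. *Egr1* stood at 137 ± 17.8, *Fos* at 60.9 ± 3.12, *Fosl1* at 41.7 ± 9.20 and *Nr4a1* at 30.3 ± 2.88. The lowest were *Fosb* at 11.0 ± 1.35 and *Atf3* at 4.65 ± 0.353. In Stem the replicate ranges of neighbours in this order overlapped only between *Fosl1* and *Nr4a1*. With TGF-β1 the order became *Jund* (2289.5 ± 110), *Fosl2* (918 ± 2.49), *Junb* (658 ± 10.5), *Jun* (379 ± 28.3), *Egr1* (85.0 ± 1.50), *Fosl1* (81.8 ± 8.73), *Fos* (75.9 ± 6.56), *Atf3* (45.4 ± 6.02), *Nr4a1* (25.1 ± 3.66) and *Fosb* (10.9 ± 3.67). *Junb* thus stood above *Jun* and *Atf3* above *Nr4a1* and *Fosb*, while *Egr1*, *Fosl1* and *Fos* overlapped with their neighbours. In Both, *Fos* (105 ± 1.86) stood above *Fosl1* (83.4 ± 5.29) and *Egr1* (79.2 ± 10.6), of which the last pair overlapped. By mean level over all libraries among 14845 genes with a length, *Jund* ranked 727, *Fosl2* 1654, *Junb* 2822 and *Jun* 3648. The other members ranked between 8336 for *Egr1* and 12413 for *Fosb*.

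**Figure D1:**
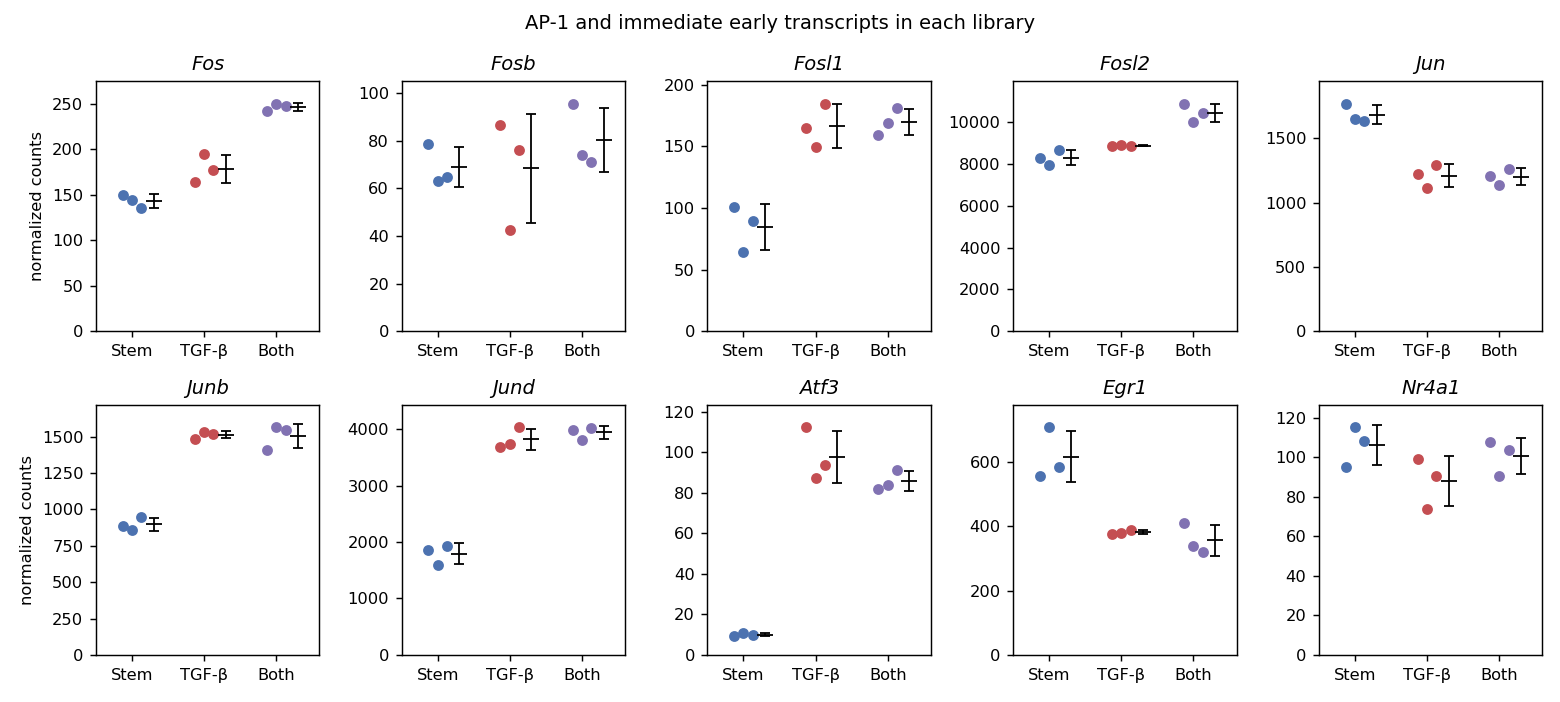
Normalized counts (y axis, starting at 0, a separate scale per gene) of each of the 10 members in each library, with a point per library and a bar for the mean ± SD of 3 libraries in Stem, TGF-β and Both. *Atf3* and *Jund* are higher in every TGF-β and Both library than in any Stem library, and *Fos* and *Fosl2* are highest in the Both libraries.

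Stem and TGF-β were compared first, to ask how these factors stand in the progenitor state and after TGF-β1 in low serum. *Atf3*, *Jund*, *Fosl1*, *Junb* and *Fos* rose in TGF-β, *Jun* and *Egr1* fell, and *Fosl2*, *Fosb* and *Nr4a1* did not pass the test. A change is written as a rise or fall at an adjusted p below 0.05, and as a call only where the log2 fold change was also below -1 or above 1. By the stricter rule 2 of the 10 members were called, both higher, beside 25.1% of all genes tested in either direction, 10.6% higher and 14.5% lower. The call of *Jund* was lost, and the count was 1, when libraries were scaled by total counts or when TREAT tested against 2-fold. At the adjusted p alone 7 of the 10 passed, beside 75% of all genes. Of these, 5 were higher, beside 37.3% of all genes, and 2 lower, beside 37.7%. The replicate ranges did not overlap for 8 of the 10, beside 76.8% of all genes. These shares are near the background of a comparison in which most genes differed, so the counts show nothing particular to these genes.

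Among the Jun proteins, *Jund*, a broadly expressed subunit often linked to quiescence, had 1867, 1586 and 1926 normalized counts in the Stem libraries and 3687, 3741 and 4028 in the TGF-β libraries. It rose 2.13-fold (log2 fold change 1.09, SE 0.0652, adjusted p = 1.47e-08), or by 0.97 on the log2 scale with total counts, and every TGF-β library stood above every Stem library. *Junb*, which is known to dampen Jun activity at some promoters, had 885, 861 and 947 in Stem and 1486, 1532 and 1521 in TGF-β. Its rise of 0.75 on the log2 scale (95% confidence interval 0.64 to 0.87, adjusted p = 7.99e-08) was below the 2-fold line. *Jun*, the prototype subunit and a driver of proliferation in many cell types, had 1768, 1651 and 1632.5 in Stem against 1219, 1116 and 1296 in TGF-β. It thus moved the other way, with a log2 fold change of -0.48 (95% confidence interval -0.61 to -0.34, adjusted p = 1.95e-05) and no overlap between the groups.

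Among the Fos proteins, *Fosl1* (Fra-1), which lacks the strong activation domain of Fos, had 101, 64.1 and 89.8 normalized counts in Stem and 165, 149 and 185 in TGF-β. Its rise of 0.97 on the log2 scale (95% confidence interval 0.64 to 1.30, adjusted p = 9.60e-05) was close to the 2-fold line, which it crossed without Stem replicate 1 (1.11), without Stem replicate 3 (1.01) or without TGF-β replicate 2 (1.05). *Fos*, the prototype of the family, had 149.7, 145 and 135 in Stem and 164, 195 and 177 in TGF-β. This smaller rise of 0.32 (95% confidence interval 0.11 to 0.53, adjusted p = 0.00961) came without overlap, and it was 0.20 with an adjusted p of 0.0841 when libraries were scaled by total counts and 0.27 with an adjusted p of 0.0676 when the 3 libraries numbered 2 were left out together, a choice made after the data were seen. *Fosl2* (Fra-2) had 8293, 7976 and 8685 in Stem and 8877, 8908 and 8861 in TGF-β, which do not overlap, and yet its difference of 0.09 (95% confidence interval 0.0016 to 0.19) had an adjusted p of 0.0614. The adjusted p fell to 0.0283 without Stem replicate 3, 0.0450 without Both replicate 1 and 0.0408 without Both replicate 2, and rose to 0.135 without Stem replicate 2. With total counts the difference turned to -0.03 (adjusted p = 0.659). *Fosb* had 78.5, 63.0 and 64.9 in Stem and 86.3, 42.6 and 76.2 in TGF-β, so that the TGF-β libraries lay on both sides of the Stem libraries (log2 fold change -0.01, 95% confidence interval -0.53 to 0.50, adjusted p = 0.959). The 3 TGF-β values of *Fosb* had a coefficient of variation of 33.5%, where counting error alone gives 12.6%, and TGF-β replicate 2 was the lowest of all 9 libraries.

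*Atf3*, a bZIP factor known for its induction by stress and by TGF-β, had the largest difference of the 10. It had 9.42, 10.9 and 9.74 normalized counts in Stem and 112, 87.2 and 93.7 in TGF-β, a 9.65-fold rise (log2 fold change 3.27, 95% confidence interval 2.84 to 3.70, adjusted p = 1.51e-08). The Stem values rest on 9, 10 and 9 counted reads, above the limit of 3 counts below which a level was not read. The groups were far apart in spite of this low base. *Egr1*, a zinc finger factor of the early response to growth factors, had 556, 706 and 584 in Stem and 376, 379 and 389 in TGF-β. It was 1.61-fold lower in TGF-β (log2 fold change -0.69, 95% confidence interval -0.92 to -0.46, adjusted p = 7.47e-05), and every Stem library stood above every TGF-β library. *Nr4a1* (Nur77), an orphan nuclear receptor of the early response, had 95.3, 115 and 108 in Stem and 99.3, 74.0 and 90.8 in TGF-β. These ranges overlapped (log2 fold change -0.27, 95% confidence interval -0.58 to 0.04, adjusted p = 0.0999), and the value depended on the setting. It was -0.39 with total counts (adjusted p = 0.0228), -0.15 without TGF-β replicate 2 (adjusted p = 0.355) and -0.09 without the 3 libraries numbered 2 (adjusted p = 0.605).

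**Figure D2:**
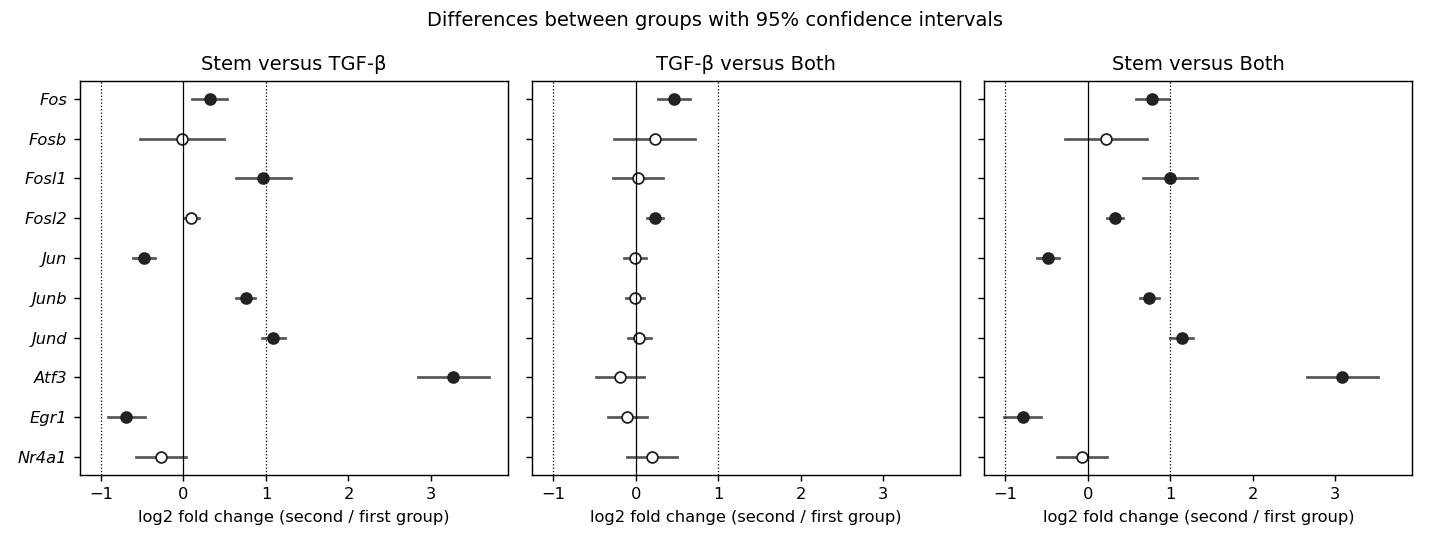
Log2 fold changes (x axis) of the 10 members in Stem versus TGF-β, TGF-β versus Both and Stem versus Both, where positive is higher in the group named second. Bars are 95% confidence intervals, filled points have an adjusted p below 0.05 and dotted lines mark -1 and 1. *Atf3* and *Jund* lie beyond 1 in both comparisons with Stem, and *Fos* at 0.46 and *Fosl2* at 0.24 are the filled points in TGF-β versus Both.

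TGF-β and Both were compared next, to ask what PFI-3 changed in cells that received TGF-β1. *Fos* and *Fosl2* were higher in Both, and the other 8 members did not pass the test. *Fos* had 164, 195 and 177 normalized counts in TGF-β and 241, 249.7 and 248 in Both. The lowest Both library stood above the highest TGF-β library, a 1.38-fold rise (log2 fold change 0.46, SE 0.0892, 95% confidence interval 0.27 to 0.66, adjusted p = 0.00757). *Fosl2* had 8877, 8908 and 8861 in TGF-β and 10894, 10042 and 10446 in Both. This was a 1.18-fold rise (log2 fold change 0.24, SE 0.0425, 95% confidence interval 0.14 to 0.33, adjusted p = 0.00514), again with no overlap. No member passed the 2-fold rule in edgeR or in DESeq2 (0 of 10), beside 0.632% of all genes, 0.161% higher and 0.47% lower, and 2 had an unadjusted p below 0.05, beside 24.1% of all genes. At the adjusted p alone the count was 2 of 10, both higher, beside 8.92% of all genes in either direction, 3.54% higher and 5.38% lower. The replicate ranges did not overlap for 2 of 10, beside 32.7% of all genes.

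The members called between Stem and TGF-β did not pass the test between TGF-β and Both. *Atf3* had 81.9, 83.9 and 91.3 normalized counts in Both, against 112, 87.2 and 93.7 in TGF-β (log2 fold change -0.19, 95% confidence interval -0.48 to 0.10, adjusted p = 0.438). *Jund* had 3990.4, 3807 and 4024 in Both (log2 fold change 0.05, interval -0.09 to 0.18, adjusted p = 0.726). *Junb* had 1410.0, 1562.5 and 1546 (-0.01, interval -0.12 to 0.11, adjusted p = 0.957), and *Jun* had 1203, 1136 and 1265 (-0.01, interval -0.15 to 0.13, adjusted p = 0.947). The intervals of all 3 *Jun* family genes exclude a change of 0.2 on the log2 scale in either direction. *Fosl1* had 159, 169 and 181 in Both (0.03, interval -0.27 to 0.33, adjusted p = 0.932). *Egr1* had 409, 339 and 319 (-0.10, interval -0.34 to 0.14, adjusted p = 0.63), which span the TGF-β values. *Fosb* had 95.4, 74.0 and 71.1 (0.23, interval -0.26 to 0.73, adjusted p = 0.586) and *Nr4a1* 108, 90.8 and 104 (0.20, interval -0.11 to 0.50, adjusted p = 0.427). The intervals of *Atf3*, *Fosb* and *Nr4a1* leave room for a difference as large as that of *Fos*. Single libraries moved these values without a call. Without TGF-β replicate 1, the highest for *Atf3*, its difference was -0.08, that of *Egr1* was -0.22 without Both replicate 1 and -0.03 without Both replicate 3, and that of *Nr4a1* was 0.09 without TGF-β replicate 2.

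Stem and Both were also compared, and these comparisons share libraries with those above, so their values stand side by side and are not independent of each other. *Atf3* was 8.48-fold and *Jund* 2.20-fold higher in Both than in Stem (adjusted p = 3.05e-08 and 1.09e-08), and these were the 2 members called, beside 22.8% of all genes, or 9.55% in the higher direction alone. With TREAT against 2-fold the call of *Jund* was lost and *Atf3* was the 1 member called. At the adjusted p alone 8 of 10 passed, beside 73.3% of all genes, with 6 higher and 2 lower where each direction held 36.6% of all genes, and the groups did not overlap for 8, beside 74.7%. *Fosl1* lay at the 2-fold line with 1.00 (adjusted p = 7.32e-05). It was also called with no filter (1.01), in a fit of the 6 libraries compared (1.00) and without any 1 of Stem replicates 1 and 3, TGF-β replicates 1 to 3 and Both replicates 1 and 2 (1.00 to 1.15). *Fos* was 1.72-fold higher in Both than in Stem (adjusted p = 8.66e-06), and the log2 steps from Stem to TGF-β and from there to Both were 0.32 and 0.46. *Fosl2* was 0.33 higher on the log2 scale (adjusted p = 1.88e-05) and *Junb* 0.75 higher (adjusted p = 9.19e-08). *Jun* fell by 0.49 (adjusted p = 1.67e-05) and *Egr1* fell by 0.79 (adjusted p = 2.44e-05). *Fos* and *Fosl2* therefore had their highest values in Both and their lowest in Stem, in every library of these groups.

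The transcript make-up of each family was computed per library as a share of its counts per kilobase, which for transcripts says nothing of the dimers formed. Of the Jun family transcripts, *Jund* made up 53.9 ± 2.03% in Stem, which was 68.8 ± 0.548% with TGF-β1 alone and 69.6 ± 1.00% with PFI-3 added (SD, n = 3). *Jun* made up 26.6 ± 1.76%, 11.4 ± 0.582% and 11.1 ± 0.332%. *Junb* held a share of 19.6 ± 0.828%, 19.8 ± 0.739% and 19.3 ± 1.18%, which overlapped between the groups. Per kilobase the sum of the family came to 1993 ± 130 normalized counts for Stem, 3327 ± 135 for TGF-β and 3394 ± 82.2 for Both. Set against *Jun* per kilobase, *Jund* was 2.04 ± 0.209 times as high in the Stem libraries, 6.05 ± 0.327 times in the TGF-β libraries and 6.28 ± 0.171 times in the Both libraries. The Stem and TGF-β libraries were fully separated in the *Jund* and *Jun* shares (two-sided exact permutation test, p = 0.1, which is the smallest that 3 against 3 can give).

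*Fosl2* made up most of the Fos family transcripts in each group, with 88.3 ± 0.970% of the Stem transcripts, 84.5 ± 0.671% of those of TGF-β and 84.3 ± 0.741% of those of Both. *Fosl1* held 4.27%, 7.53% and 6.52%, *Fos* 6.27%, 6.99% and 8.18%, and *Fosb* 1.13%, 1.01% and 1.00%. The family sum came to 973 ± 42.0 normalized counts per kilobase for Stem, 1086 ± 6.39 for TGF-β and 1282 ± 41.7 for Both. By this sum the TGF-β libraries were fully separated from the Stem libraries below and the Both libraries above (exact permutation p = 0.1 for each, the smallest possible). The *Fos* share was separated between TGF-β and Both (exact p = 0.1), whereas the *Fosl2* share was not (exact p = 1).

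**Figure D3:**
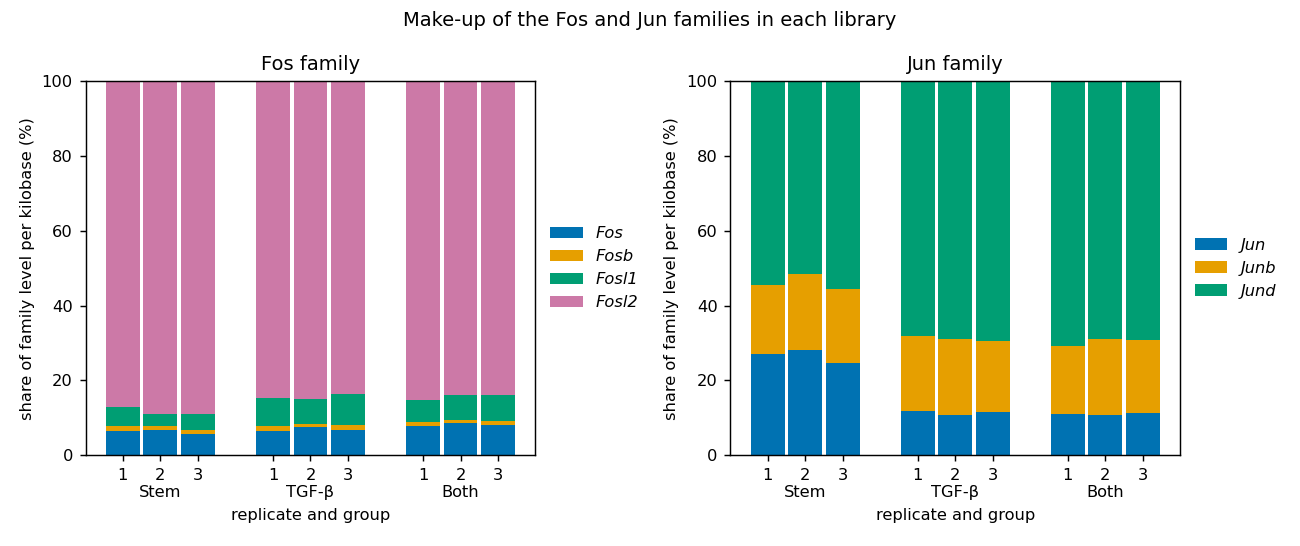
Stacked bars of the share (percent, y axis) of each gene in the summed counts per kilobase of the Fos family and of the Jun family, 1 bar per library of Stem, TGF-β and Both. The *Jund* share is about 53.9% in Stem and 68.8% in TGF-β, and *Fosl2* takes most of the Fos family in all 9 libraries.

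Some members share genomic sequence with another gene on the opposite strand in the GRCm38 annotation, and it is not given whether the counting used strand. *Fosl1* overlaps *Ccdc85b* over 1163 exonic bases, and *Ccdc85b* had 9307 counts over all libraries where *Fosl1* had 1281. *Ccdc85b* moved the other way between Stem and TGF-β (log2 fold change -0.49, adjusted p = 2.62e-06). *Junb* overlaps *Prdx2* over 173 bases, and *Prdx2*, with 49555 counts against 11868 for *Junb*, differed by 0.10 (adjusted p = 0.0336). The antisense genes over *Jund* and *Jun* held 263 and 70 counts, against 29129 and 12202 for the members. Between Stem and TGF-β the antisense gene over *Jund* was called lower (log2 fold change -1.84, adjusted p = 5.91e-05), whereas *Jund* rose. The one over *Jun* had 0.0017 (adjusted p = 0.997). The part of misassigned reads in these values was not tested.

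The other genes of the pathway were described by 8 lists with 114 genes, of which 103 were tested. Between Stem and TGF-β, 43 of the 103 were called, beside 25.1% of all genes (10.6% higher and 14.5% lower, the background for each list below). Between TGF-β and Both 0 were called by edgeR or DESeq2, beside 0.632% of all genes in edgeR, with 50 at an unadjusted p below 0.05, beside 24.1% of all genes, and 29 at an adjusted p below 0.05 (11 higher and 18 lower in Both), beside 8.92% of all genes at that adjusted p (3.54% higher and 5.38% lower). Among the regulators of the early genes, the list of SRF, ternary complex and CREB factors also holds *Nab1* and *Nab2*. Of its 11 genes, 0 were called in either tool between Stem and TGF-β, with 8 at an unadjusted p below 0.05, where 76.5% of all genes were. Its median log2 fold change was -0.26 beside -0.0027 for all genes tested. *Srf* itself was lower in TGF-β (log2 fold change -0.32, adjusted p = 0.0148). In Both, *Crem*, a cyclic AMP responsive factor, rose by 0.46 (adjusted p = 0.0128) and *Nab1*, a repressor that binds Egr proteins, by 0.19 (adjusted p = 0.0335), while its paralog *Nab2* had 0.11 (adjusted p = 0.0797). Of 13 MAP kinases, which carry growth factor signals to these genes, 2 were called lower in TGF-β, *Rps6ka1* (-1.64) and *Rps6ka5* (-1.56), and *Rps6ka1* was higher in Both than in TGF-β by 0.74 (adjusted p = 0.0204).

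In the lists of growth factor receptors and feedback genes, most called genes were lower in TGF-β. Of 6 EGF and FGF receptors tested, 0 were called higher and 3 lower, with log2 fold changes of -2.20 for *Egfr*, -2.04 for *Fgfr2* and -1.14 for *Fgfr1*. Between TGF-β and Both, *Egfr* was the 1 receptor that passed the adjusted p. It was higher in Both by 0.26 on the log2 scale (adjusted p = 0.00916). Of 15 MAP kinase feedback genes, 1 was called higher and 10 lower, with a median of -1.36. The fall was largest for *Etv1* (-3.69), *Spry2* (-3.13) and *Dusp1* (-2.76), the last of which encodes a phosphatase that switches off MAP kinases, and *Dusp8* rose (3.30). In Both, *Dusp1* (0.94, adjusted p = 0.0282) and *Spry2* (0.45, adjusted p = 0.000217) were higher than in TGF-β, and *Etv4* (-0.99, adjusted p = 0.0419), *Etv5* (-0.41, adjusted p = 0.00193) and *Spry1* (-0.30, adjusted p = 0.00199) were lower.

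Of 28 other immediate early genes tested, 10 were called higher and 4 lower in TGF-β than in Stem, with a median of 0.34. *Gadd45b*, a stress response gene, rose by 2.95, *Ptgs2*, the inducible cyclooxygenase, by 2.81 and *Hbegf*, a ligand of the EGF receptor, by 2.56, while *Trib1* (-2.69), *Phlda1* (-1.25) and *Sgk1* (-1.22) fell. The paralogs of the zinc finger and nuclear receptor members went in different directions. *Egr2* rose by 1.00 where *Egr1* fell, and *Egr3* had -0.12 (adjusted p = 0.526). *Nr4a2* rose by 1.03 (adjusted p = 4.93e-06) and *Nr4a3* fell by 0.91 on the log2 scale (adjusted p = 0.00048). Between TGF-β and Both 4 of the 28 rose and 7 fell at the adjusted p alone. *Ier3*, an early gene linked to cell survival, rose by 0.84 (adjusted p = 8.23e-05), *Sgk1* by 0.68 and *Trib1* by 0.43, whereas *Egr2* (-0.61, adjusted p = 0.00517), *Hbegf* (-0.57) and *Plk2* (-0.42) fell.

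Of the 10 tested genes among other AP-1 and bZIP partners, 3 were called between Stem and TGF-β. Among them, *Ddit3* (CHOP), a stress-induced bZIP factor, rose by 2.68 and *Maf* (-2.20) fell. In Both, *Ddit3* (-0.31, adjusted p = 0.00738), *Jdp2* (-0.25, adjusted p = 0.0161) and *Mafg* (-0.20, adjusted p = 0.0112) were lower than in TGF-β. Genes known as AP-1 targets moved in both directions in TGF-β, with 5 of 11 called higher and 3 lower. *Il6* (3.47), the collagenase gene *Mmp13* (2.79) and *Timp1* (2.20) rose, and *Plau* (-4.91), *Mmp3* (-4.39) and *Ccl2* (-3.07) fell. Between TGF-β and Both, *Il6* rose by 0.33 (adjusted p = 0.034), while *Ccnd1* (-0.92, adjusted p = 2.81e-05), *Mmp13* (-0.65, adjusted p = 0.0202) and *Hmox1* (-0.39, adjusted p = 0.00914) were among the 5 that fell. Heat shock genes, which also respond to handling, had 1 of 9 called higher (*Hspb1*, 1.06) and 1 lower (*Hspa1b*, -1.88) in TGF-β, and 0 of 9 passed the adjusted p between TGF-β and Both in edgeR, with 3 at an unadjusted p below 0.05 and 0 called by DESeq2. Mean normalized counts in TGF-β and Both were 948 and 2033 for *Hspa1b* and 383 and 613 for *Hspa1a*. The means of *Hspe1* (5982 and 5908) and *Hspd1* (14418 and 14169) were lower in Both, and the list's median log2 fold change was 0.08.

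**Figure D4:**
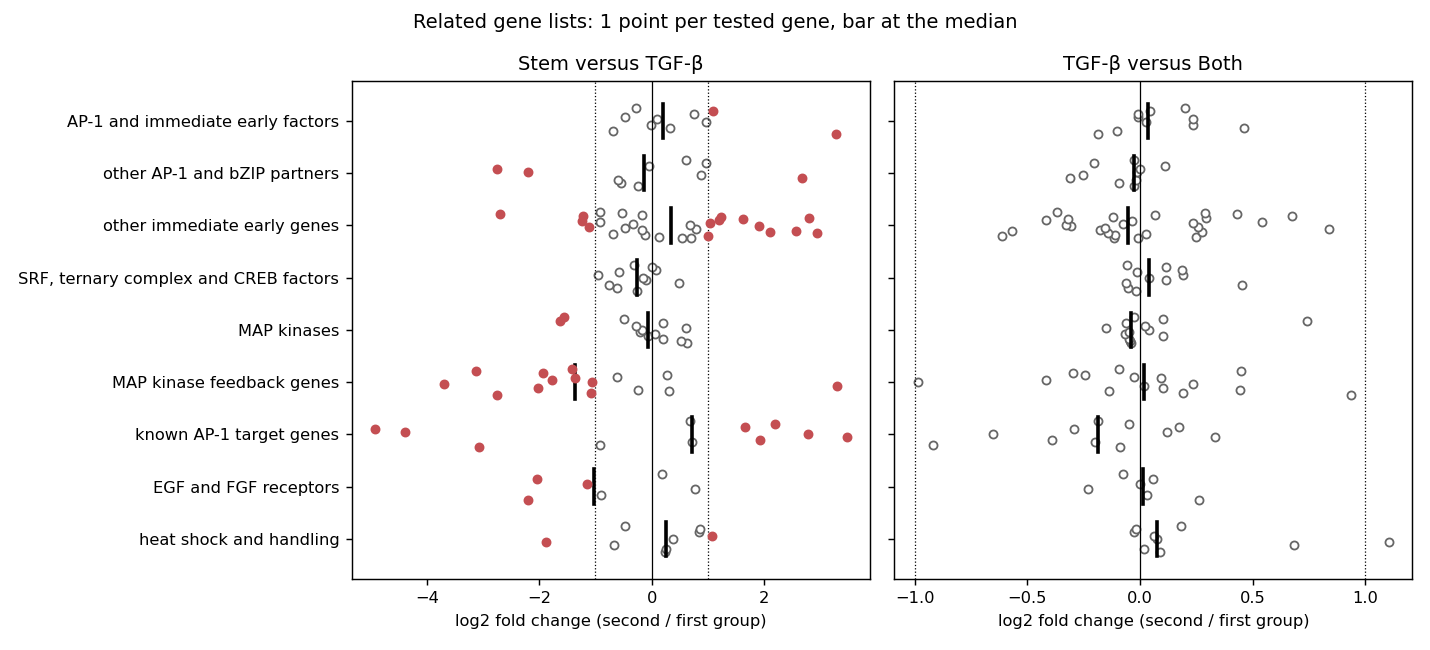
Log2 fold changes (x axis) of each tested gene of the 10 members and the 8 related lists (rows) in Stem versus TGF-β and in TGF-β versus Both, with separate x scales. Red points passed the adjusted p and the 2-fold rule, open points did not, dotted lines mark -1 and 1, and the black bar is the list's median, which is -1.36 for the MAP kinase feedback genes in Stem versus TGF-β. No red point appears in TGF-β versus Both.

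Genes whose level over the 9 libraries was most like that of a member were found by Pearson's r of log2 levels among 10876 or 10877 genes with a mean of at least 100 normalized counts. Since the libraries form 3 groups, these values describe a like pattern over the groups and are given without a test. *Fos* was most like *Ier3* (r = 0.985) and *Slc25a30* (r = 0.977), and *Fosl2* most like *Cant1* (0.980) and *Maco1* (0.968). *Atf3* was most like *Ap2m1* (0.999) and *Ston2* (0.998), *Jund* like *Babam1* (0.999) and *Irf2bpl* (0.998), and *Junb* like *Mrpl52* (0.998) and *Pepd* (0.997). *Jun* was most like *Adcy9* (0.992) and *Ift80* (0.991), *Fosl1* like *Dnajb12* (0.994) and *Rnd1* (0.994), and *Egr1* like *Htr2a* (0.985) and *Cc2d2a* (0.982). The best values were lower for *Nr4a1*, which was most like *Rtl5* (0.917) and *Rgs17* (0.913), and for *Fosb*, which was most like *Cnpy4* (0.865) and *Ndor1* (0.853). When deviations from the group means were compared instead, *Rgs17* (0.951) was again among the genes most like *Nr4a1*, after *Lrp6* (0.993). *Mrpl52* (0.977) was again among those most like *Junb*, after *Eif3l* (0.983), while *Ncs1* (0.981) was the gene most like *Fosb*.

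Total counts were between 35686291 and 47741128 per library, a count of 3 stood for 2.63 to 3.26 normalized counts, and the biological coefficient of variation between replicates was 6.13%. The summed level of *Ly6a*, *Cd34*, *Pdgfra* and *Scara5*, which mark AdvSca1-SM cells, was between 50475 and 58767 in Stem, between 6361 and 6638 in TGF-β and between 6784 and 7423 in Both. All 4 were called lower in TGF-β than in Stem, and the sums are carried by *Pdgfra*, which rose from a mean of 5438 in TGF-β to 6268 in Both (adjusted p = 0.0485). In the same comparison *Scara5* was called lower (log2 fold change -1.18, adjusted p = 0.0383), and *Ly6a* (-0.36, adjusted p = 0.0859) and *Cd34* (-0.62, adjusted p = 0.234) did not pass the test, with a median of -0.49 over the 4. Of 6 leukocyte markers, the summed level was 19.6 to 41.9, 71.0 to 104 and 152 to 156 in the same order, carried by *Csf1r*, while *Ptprc* had 3 counts or fewer and *Adgre1* had 0 in every library. The 2 leukocyte markers tested, *Csf1r* (log2 fold change 1.41, adjusted p = 0.000207) and *Cd68* (1.86, adjusted p = 0.00475), were called higher in TGF-β than in Stem. *Cd68* was low, with means of 3.53 in Stem and 13.2 in TGF-β. *Csf1r* was also higher in Both than in TGF-β by 0.86 (adjusted p = 0.0149). The 6 endothelial markers summed to 115 to 249, 59.4 to 93.7 and 52.7 to 70.1, but did not move together. *Emcn* was between 46.7 and 176 in Stem and between 2.16 and 17.6 in TGF-β, whereas *Kdr* was between 0 and 2.16 in Stem and between 22.7 and 30.3 in TGF-β. One label names hepatic tissue for the RNA extraction, and all 6 hepatocyte markers were at or below 3 counts in every group. The 6 myofibroblast markers summed to 444703 to 503582 in Stem, 1464830 to 1566130 in TGF-β and 1061990 to 1137590 in Both. Of these, 5 were called higher in TGF-β than in Stem, and 5 were lower in Both than in TGF-β at the adjusted p. The 6 mature smooth muscle markers summed to 10119 to 12826.5, 22426 to 24854 and 17158 to 18081 in the same order. Among them 2 were called higher and 1 lower in TGF-β, and 3 were lower in Both than in TGF-β at the adjusted p. The part of other cell types or cell states in the members' differences was not tested.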

How the data were processed

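RNA-Seq was performed by the authors with a stranded, ribo-depleted kit on 9 libraries, 3 each of Stem, TGF-β and Both. The deposited values are raw read counts per Ensembl gene, without normalization. The study's methods name Flexbar for trimming and STAR for alignment to GRCm39, whereas the submitters' processing notes list HISAT2 2.2.1, SAMtools 1.13 and HTSeq 0.11.3, so the aligner behind the counts is uncertain. The sources used here give neither the strand setting nor how multiply aligned reads were handled, and either could change the counts of members that overlap or resemble another gene.

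The software was edgeR 4.0.16 (with limma 3.58.1) under R 4.3.3, and DESeq2 1.42.0. After filterByExpr and TMM scaling, a single model with a term for group covered the 9 libraries, and edgeR's quasi-likelihood test was used with Benjamini-Hochberg adjustment over 14879 genes and a prior count of 0.125. The study's threshold was kept (adjusted p of 0.05 and 2-fold), and DESeq2, the tool of the study, served as an alternative. For display, counts were brought to a common library of 41184338, the mean TMM-scaled size, and are called normalized counts. Symbols were paired with 52083 of 55416 Ensembl identifiers, and where a symbol had more than 1 identifier (*Ddit3*) the one with the most counts was used. Lengths and overlaps came from the GRCm38 annotation and promoters from RefSeq on GRCm38.p6, so no coordinates are given for the counts. Exon lengths can exceed the expressed isoform. Shares were compared by exact permutation tests, two-sided. The fit was tested on simulated counts with known changes.

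The members and gene lists were chosen with earlier results of these data known. Named genes were all 10 members, *Srf*, *Dusp1*, *Nab1* and *Nab2*, the genes most like each member and, per list, up to 3 called genes with the largest rise and up to 3 with the largest fall, and for TGF-β versus Both also up to 3 in each direction at the adjusted p alone. *Egr3*, *Nr4a2*, *Nr4a3*, *Ccdc85b*, *Prdx2*, *Hspa1a*, *Hspe1*, *Hspd1*, *Csf1r*, *Cd68*, *Adgre1*, *Ptprc*, *Emcn*, *Kdr*, *Ly6a* and *Cd34* were named after their values were seen. Alternatives were other scalings and filters, DESeq2, the compared libraries alone, a prior count of 2, a replicate block, TREAT, no fold minimum, and leaving out each library. CUT&RUN, qPCR and animal data were not analysed here, and a result for 1 withheld item is not reported here.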

Additional observations from a re-analysis of the deposited data

How the results depend on the processing

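Of 540 member values recomputed under the alternatives, 517 kept their direction and side of the threshold, 16 turned direction, 5 gained and 2 lost significance. Members called between Stem and TGF-β were 2, but 1 (*Atf3*) with total counts, where *Jund* had a log2 fold change of 0.97, 1 (*Atf3*) with TREAT and 7 without a fold minimum. They were 2 with no fold minimum between TGF-β and Both, where 0 were called, and 8 with no fold minimum, 1 with TREAT and 3 with no filter or with the 6 libraries compared between Stem and Both, where 2 were called. Leaving out each library gave 2 to 3, 0 to 0 and 2 to 3 called members, and 7 to 8, 2 to 2 and 8 to 8 at the adjusted p alone. The third member was *Fosl1*. With a replicate block 2, 0 and 3 members were called and 8, 2 and 8 passed the adjusted p. Same-numbered libraries of Stem and TGF-β had correlations of their deviations of 0.26, 0.38 and 0.05 across genes for numbers 1 to 3, those of TGF-β and Both 0.18, 0.44 and 0.08 and those of Stem and Both 0.08, 0.43 and -0.05, so the numbers were not taken as pairs. The direction turned only in differences that did not pass the test. For *Fosb* in Stem versus TGF-β it was 0.09 without Stem replicate 1, 0.24 without TGF-β replicate 2 and 0.18 without the 3 libraries numbered 2 (added after seeing the data), and in TGF-β versus Both -0.017 without TGF-β replicate 2. *Fosl2* had -0.026 in Stem versus TGF-β with total counts, a scaling that moved the median of all genes to -0.12. In TGF-β versus Both, *Fosl1* had -0.046 with TGF-β replicate 2 left out, -0.02 with Both replicate 3 left out and -0.04 without the libraries numbered 2. *Jun* had 0.00057 with total counts, 0.041 when TGF-β replicate 3 was left out and 0.03 when Both replicate 2 was, and *Junb* had 0.0042 with total counts, 0.00086 when TGF-β replicate 2 was left out and 0.038 when Both replicate 1 was. *Nr4a1* in Stem versus Both had 0.00065 without Both replicate 2 and 0.068 without the libraries numbered 2. Over the single libraries left out, these differences ranged from -0.20 to 0.24 and from -0.017 to 0.43 for *Fosb* in the order above, from -0.046 to 0.11 for *Fosl1*, from -0.067 to 0.041 for *Jun*, from -0.036 to 0.038 for *Junb* and from -0.14 to 0.00065 for *Nr4a1*. *Fosl2* in Stem versus TGF-β passed with the replicate block (adjusted p = 0.0316). The rise of *Fos* in Both over TGF-β stayed between 0.41 and 0.53 (adjusted p 0.00157 to 0.0408) and that of *Fosl2* between 0.21 and 0.27 (1.95e-05 to 0.0328). Apart from the 2-fold line and the values above, the causes of these shifts were not tested.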

Other observations

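Among the genes related to the members, some varied with the replicate number in every group. *Dusp1* had 4866, 3230 and 4019 normalized counts in Stem replicates 1, 2 and 3, 714, 442 and 637 in TGF-β and 1421, 746 and 1255 in Both, so replicate 1 was the highest and replicate 2 the lowest in all 3 groups. *Hspa1b*, an inducible heat shock gene, had 5169.5, 1908 and 3343, then 1134, 645 and 1064, then 2772, 1232 and 2096, in the same order. *Hspa1a* had 769, 465 and 589, then 444, 306 and 400, then 734, 420 and 685, again in that order. For *Srf* the values were 783, 586 and 630, then 571, 507 and 525, then 562, 470 and 508. In these 3 genes too, replicate 1 was the highest and replicate 2 the lowest in all 3 groups. Of the 10 members, 0 were lowest in replicate 2 of all 3 groups and 6 were lowest there in 2 groups (*Fosb*, *Fosl1*, *Fosl2*, *Jun*, *Jund* and *Nr4a1*). No share of all genes is given here for 2 groups, so the count of 6 is not read further. Over all genes tested, 1856 of 14879 (12.5%) were lowest in replicate 2 of all 3 groups. The labels do not say what the numbers stand for, and a shared source of these differences was not tested.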
